A study of Mus musculus with 4 samples.

Results

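A set of 10 glycolytic enzyme genes that code for alternative forms of 5 enzymes were followed in embryonic retinas with and without *Nrf1*. The set held *Hk1* and *Hk2* (hexokinase), *Pfkl*, *Pfkm* and *Pfkp* (phosphofructokinase), *Aldoa* and *Aldoc* (aldolase), *Tpi1* (triosephosphate isomerase) and *Pgam1* and *Pgam2* (phosphoglycerate mutase). These 10 genes were taken by name from the 24062 genes of the count table, and all 10 were among the 15762 genes with enough reads to be tested.

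RNA was sequenced from mouse retinas at E13.5 (embryonic day, counted from mating), with 2 libraries labelled wild type (WT) and 2 from the conditional knockout (Nrf1-CKO, also written *Nrf1* f/f;Six3-Cre). Both genotypes were on a mixed C57BL/6 and 129 background. In Nrf1-CKO, both *Nrf1* copies carry a floxed allele and a Six3-Cre transgene, active first in the central retina, removes part of the gene in retinal progenitors, so that tissue in which Cre is not active keeps it. Retinas of littermates were pooled for RNA, and the labels do not tie the 2 libraries of a genotype to separate litters, so the p-values below measure the spread between these libraries only.

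Glycolysis splits glucose into pyruvate and yields ATP without oxygen. Hexokinase traps glucose in the cell, phosphofructokinase carries out the committed step, aldolase and triosephosphate isomerase produce and interconvert the 3-carbon sugars, and phosphoglycerate mutase works in the lower, ATP-yielding part of the route. Most of these enzymes exist as isoforms coded by separate genes, with the L, M and P forms of phosphofructokinase named after liver, muscle and platelets. Embryonic retinal progenitors are known for a high use of glucose through glycolysis. Nrf1 (nuclear respiratory factor 1) is a transcription factor known for activating nuclear genes of mitochondrial respiration, and it binds a GC-rich palindrome.

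The promoters of the isoform genes differed in whether they held the letters that Nrf1 is known to bind. In RefSeq start-site windows on GRCm38.p6 (250 bases before to 50 bases after each start), all 10 genes had at least 1 window and together they had 17. The 8-letter element GCGCATGC was searched on both strands, and 2.71% of the 32851 windows of all genes held it. Of the 17 isoform windows 1 held it, that of *Pgam1*. The short cores ACGTG and GCGTG of the hypoxia response element, which can lie inside longer matches to other factors, were present in 19.6% and 32.4% of all windows and in 8 of the 17 isoform windows each, some of which overlap, and *Pgam2* was 1 of 2 isoform genes with neither. Stretches of 3 promoters are shown, that of *Pgam1* because it holds the Nrf1 letters, and those of *Pfkp* and *Pgam2* because their transcripts differed most between the genotypes.
Pgam1, chr19:41911771-41911900, plus strand: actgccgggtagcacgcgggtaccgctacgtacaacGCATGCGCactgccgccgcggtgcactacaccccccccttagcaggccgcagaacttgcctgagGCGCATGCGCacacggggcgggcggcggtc
Pfkp, chr13:6648772-6649021, minus strand: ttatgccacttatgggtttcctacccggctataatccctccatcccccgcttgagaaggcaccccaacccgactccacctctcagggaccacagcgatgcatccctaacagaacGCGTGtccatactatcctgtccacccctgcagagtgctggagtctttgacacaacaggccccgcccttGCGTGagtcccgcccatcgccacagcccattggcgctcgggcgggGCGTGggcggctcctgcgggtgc
Pgam2, chr11:5803797-5804046, minus strand: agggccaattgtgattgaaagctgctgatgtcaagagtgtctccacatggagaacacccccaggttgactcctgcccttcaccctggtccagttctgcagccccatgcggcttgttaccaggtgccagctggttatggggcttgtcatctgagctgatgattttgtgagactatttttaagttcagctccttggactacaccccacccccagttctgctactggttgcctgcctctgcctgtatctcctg
Capitals in the *Pgam1* stretch, which runs from 100 bases before to 30 bases after the start, mark the 3 matches to GCGCATGC on either strand, of which the last 2 overlap. They begin 64 bases before the start and at the start itself. Capitals in the *Pfkp* stretch mark GCGTG, of which 3 lie in the 250 bases before the start and a 4th follows it. The *Pgam2* stretch has no capitals because its window held none of the 3 strings. A match of letters is a description and no evidence of binding.

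Reads assigned to genes numbered 74577660 and 85933945 in the WT libraries and 83425985 and 83540824 in the Nrf1-CKO libraries. Levels are given as CPM, read counts scaled to the total on genes after TMM normalization, and as RPKM, that CPM per kilobase of exon, which is the scale used to compare one gene with another. A gene was called higher or lower in Nrf1-CKO when edgeR's quasi-likelihood test gave a Benjamini-Hochberg adjusted p of at most 0.2 over all tested genes and a fold of at least 1.4, the thresholds of the study. *Nrf1* itself had 9052 and 7789 reads in WT and 8594 and 8284 in Nrf1-CKO, a log2 fold change of -0.03 (SE 0.07, adjusted p = 0.794). The floxed allele removes a single exon, so a count over the whole gene does not check the labels.

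The levels of cell type markers differed between the genotypes. Of 12 markers of retinal ganglion cells (RGCs), the first neurons to form in the retina, 11 were called lower in Nrf1-CKO, and their summed level went from 3286 and 3733 CPM to 1420 and 1149 CPM. Of 12 retinal progenitor markers 2 were called lower, beside 8.04% of all tested genes. The 12 summed to 8142 and 8712 CPM in WT and 6363 and 6939 CPM in Nrf1-CKO. Much of that fall lay in 2 genes with many reads, *Ccnd1* (222561 and 205793 reads in WT, 115483 and 124272 in Nrf1-CKO) and *Fgf15* (97321 and 86215 in WT, 58826 and 57439 in Nrf1-CKO). The median log2 fold change of the 12 was -0.11. All 12 lens markers were called higher, with sums of 173.9 and 472.5 CPM against 9764 and 3958 CPM. In bulk tissue, fewer cells of a type and less RNA per cell cannot be told apart.

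Of the 10 isoform genes, 7 had lower mean levels in Nrf1-CKO. In all, 3 were called lower (*Hk1*, *Pfkp* and *Tpi1*) against a background of 8.04% of all tested genes, 2 were called higher (*Aldoc* and *Pgam2*) against 12.8%, and 5 were not called. The libraries of the genotypes did not overlap for 9 of the 10 genes, all but *Pfkm*, against 62.5% of all tested genes. The median log2 fold change of the 10 was -0.36, and that of all tested genes was 0.00073. *Hk1*, *Pfkp*, *Tpi1* and *Pgam2* were singled out by the study from these same libraries, so these counts are not independent evidence of a direction. The study also reported changes of these genes by qRT-PCR on other pools of E13.5 retinas.

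**Figure D1:**
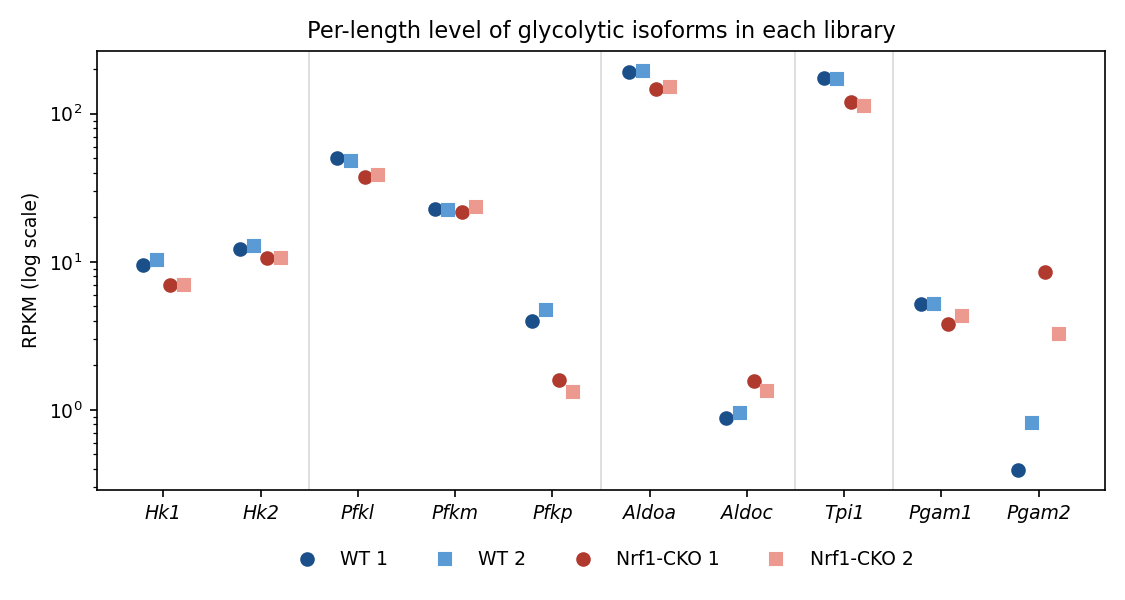
Level of each isoform gene in every library, in RPKM on a log scale, with WT and Nrf1-CKO libraries as separate points. *Aldoa* and *Tpi1* lay highest in all 4 libraries, the points of *Pfkm* overlapped between genotypes, and *Pfkp* and *Pgam2* showed the widest gaps in opposite directions.

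**Figure D2:**
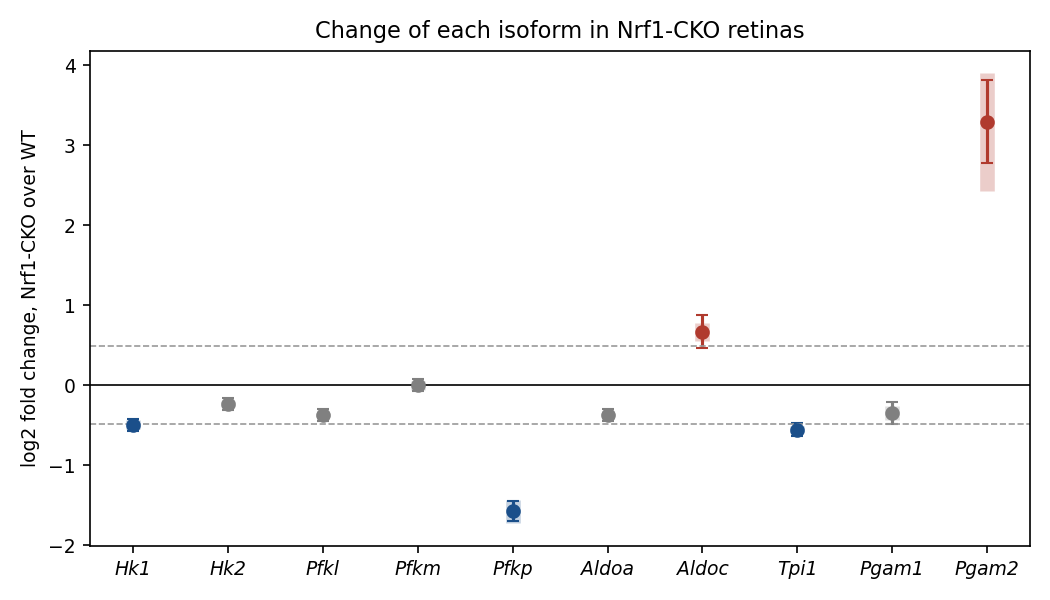
Log2 fold change of each gene, Nrf1-CKO over WT, from edgeR's fit, with thin bars of 1 SE, pale bands for the range over fits that each omit 1 library, dashed lines at the 1.4-fold limit, and blue for called lower, red for called higher and grey for not called. *Pfkp* lay at -1.58 and *Pgam2* at 3.30, while *Hk2*, *Pfkl*, *Pfkm*, *Aldoa* and *Pgam1* lay inside the limit.

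At the first step, *Hk1* fell and *Hk2* changed by less than the fold limit. *Hk1* (chr10:62268855-62379908, GRCm38) codes for the form of hexokinase found in most tissues and abundant in neurons. It had 7090 and 6505 reads in WT and 4958 and 4929 in Nrf1-CKO. Both Nrf1-CKO libraries were low and nearly equal, and the mean level fell from 84.3 ± 4.77 to 59.6 ± 0.0742 CPM (SD, n = 2 each). The log2 fold change was -0.50 (SE 0.078, adjusted p = 0.00211), just past the fold limit of 0.485 on that scale. It missed that limit without the second WT library (-0.44), with upper-quartile scaling (-0.46) and on the normalized values deposited with the counts (-0.45). *Hk2* (chr6:82725025-82774454), the inducible form typical of muscle and of proliferating cells, had 6349 and 5651 reads in WT and 5247 and 5217 in Nrf1-CKO. Its level was 74.3 ± 2.61 CPM in WT and 63.1 ± 0.0726 CPM in Nrf1-CKO. The groups did not overlap, but the log2 fold change of -0.24 (SE 0.075, adjusted p = 0.0521) was under the fold limit, so *Hk2* was not called.

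The balance of the hexokinases moved slightly toward *Hk2*. Its share of the summed per-length level of both genes was 56.1% and 55.4% in the WT libraries and 60.2% in each Nrf1-CKO library. The within-library log2 ratio of *Hk2* to *Hk1* was higher in Nrf1-CKO by 0.26 with a pooled SD of 0.0219, and the groups did not overlap. Which of the 2 genes was the more abundant depended on the length used. With the length of the longest transcript in place of all exons, *Hk2* held 40.6% in WT and 45.1% in Nrf1-CKO.

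Of the 3 phosphofructokinase genes, only *Pfkp* was called. *Pfkp* (chr13:6579768-6648777), the platelet form, fell the most of all 10 genes. It had 4654 and 4679 reads in WT and 1780 and 1453 in Nrf1-CKO. Both mutant libraries were well under both WT libraries, and the level went from 58.1 ± 7.03 to 19.5 ± 2.73 CPM, 33.6% of WT. The log2 fold change was -1.58 (SE 0.12, adjusted p = 0.000104) and ranged from -1.73 to -1.44 over the 4 fits that each omit 1 library.

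*Pfkl* (chr10:77986947-78010083), the liver form, was the most abundant of the 3. It had 29295 and 23819 reads in WT against 20671 and 21210 in Nrf1-CKO, and 327.8 ± 9.45 against 252.6 ± 5.33 CPM. The groups did not overlap and the adjusted p was 0.00804, but the log2 fold change of -0.38 (SE 0.077) was under the fold limit. *Pfkm* (chr15:98092589-98132451), the muscle form, had 6653 and 5584 reads in WT and 6051 and 6489 in Nrf1-CKO. Its groups overlapped, with 75.6 ± 0.482 CPM in WT and 75.6 ± 3.96 CPM in Nrf1-CKO, a log2 fold change of 0.00011 (SE 0.077, adjusted p = 0.999).

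The make-up of phosphofructokinase transcripts therefore differed between the genotypes. *Pfkl* held 64.5% ± 0.983 of the summed per-length level in WT and 61.1% ± 0.465 in Nrf1-CKO. *Pfkm* went from 29.8% ± 0.215 to 36.5% ± 0.862, and *Pfkp* went from 5.70% ± 0.767 to 2.35% ± 0.397 (SD, n = 2 each). As shares of reads, with no correction for length, *Pfkl* went the other way, from 71.0% to 72.6%, while *Pfkm* went from 16.4% to 21.7% and *Pfkp* from 12.6% to 5.61%. Within libraries, the ratio of *Pfkm* to *Pfkp* was 2.98-fold higher in Nrf1-CKO (log2 difference 1.58, pooled SD 0.236), and that of *Pfkl* to *Pfkp* was 2.30-fold higher (1.20, pooled SD 0.225). The ratio of *Pfkl* to *Pfkm* was lower by 0.38 on the log2 scale, with a pooled SD of 0.0392.

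**Figure D3:**
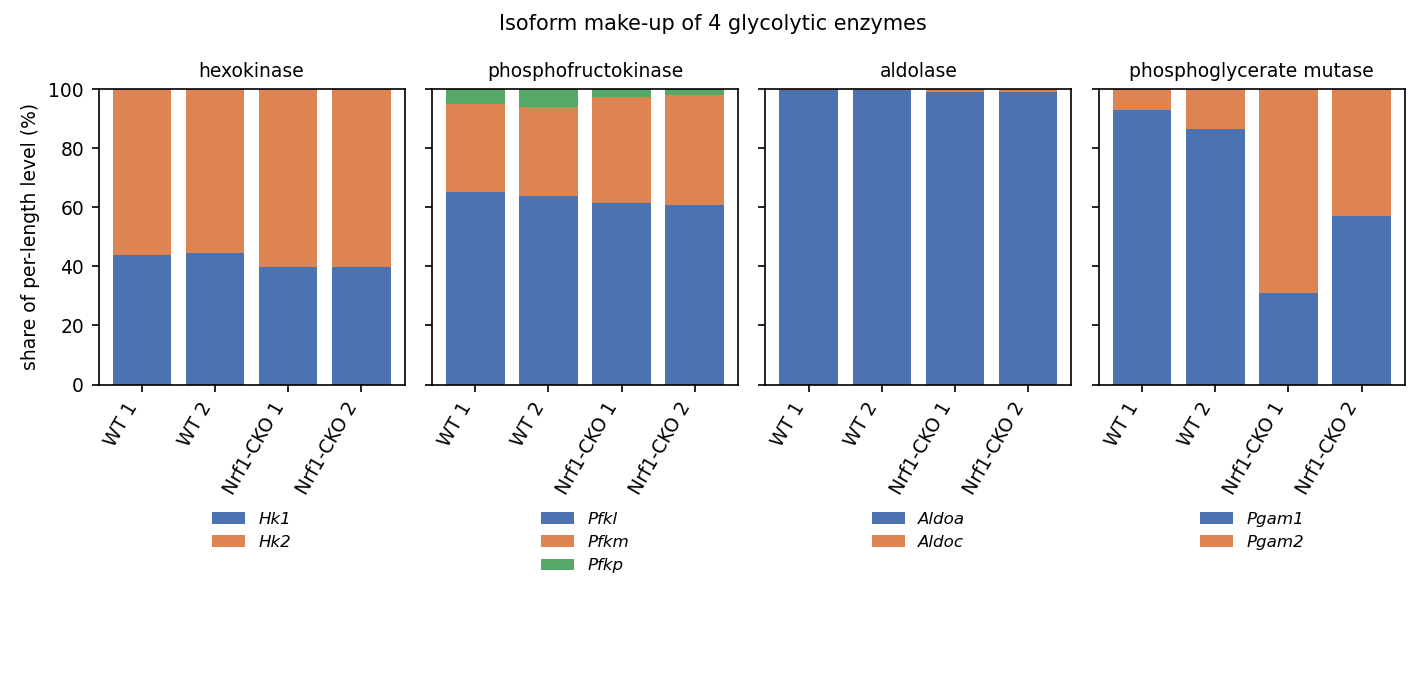
Share of each isoform in the summed per-length level of its enzyme, in percent, stacked for each library. The *Pfkm* share was larger and the *Pfkp* share smaller in both Nrf1-CKO libraries, *Aldoc* stayed near 1% or below, and the *Pgam2* share was 69.1% and 43.0% in the Nrf1-CKO libraries.

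The aldolases lay at very different levels, and *Aldoc* was called higher while *Aldoa* was lower but not called. *Aldoa* (chr7:126795234-126800751), the muscle and general form, was the most abundant of the 10 genes at 193 RPKM in WT. It had 48765 and 42165 reads in WT and 35800 and 36361 in Nrf1-CKO, and 562.7 ± 8.24 against 435.2 ± 6.05 CPM. The groups did not overlap and the adjusted p was 0.00852, but the log2 fold change of -0.37 (SE 0.077) did not reach the fold limit. *Aldoc* (chr11:78322968-78327781), the brain form, had 251 and 229 reads in WT and 424 and 360 in Nrf1-CKO.

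Both Nrf1-CKO libraries were above both WT libraries for *Aldoc*, and its level rose from 2.98 ± 0.157 to 4.73 ± 0.532 CPM (log2 fold change 0.67, SE 0.21, adjusted p = 0.0469). On the normalized values deposited with the counts the difference was 0.31, under the fold limit. *Aldoc* held 0.470% ± 0.0177 of the aldolase level in WT and 0.961% ± 0.120 in Nrf1-CKO, and its ratio to *Aldoa* within libraries was 2.05-fold higher (log2 difference 1.03, pooled SD 0.135).

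*Tpi1* (chr6:124810586-124814296), the sole triosephosphate isomerase gene followed here, fell. It had 41741 and 34971 reads in WT and 27586 and 25856 in Nrf1-CKO. The WT libraries lay close together and both mutant libraries were lower, with 474 ± 3.63 against 322 ± 13.8 CPM. The log2 fold change was -0.56 (SE 0.079, adjusted p = 0.0013), and each of the 4 fits with a library left out gave a value between -0.60 and -0.52. With no second form in the set, the level of this step in Nrf1-CKO was 68.0% of that in WT, against 78.6% for hexokinase, 81.4% for phosphofructokinase and 77.7% for aldolase. Phosphoglycerate mutase was the step with a higher total, at 173% of WT (5.77 and 9.98 RPKM), but this total is uncertain because it adds *Pgam2* to a *Pgam1* level that may be too low, as described next.

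At phosphoglycerate mutase the muscle form rose from near the bottom of the range. *Pgam2* (chr11:5801640-5803733), found mostly in skeletal and heart muscle, had 29 and 51 reads in WT and 598 and 226 in Nrf1-CKO. Both mutant libraries were far above WT but differed from each other, with 7.20 and 2.73 CPM against 0.331 and 0.688 CPM. The log2 fold change was 3.30 (SE 0.52, adjusted p = 0.0022), a 9.83-fold rise that was called in each fit with a library left out. Its size depended on single libraries, with a log2 fold change of 2.43 without the first Nrf1-CKO library and 3.90 without the second WT library, and 1.05 on the deposited normalized values.

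*Pgam1* (chr19:41911923-41918660), the brain and general form, had 896 and 758 reads in WT and 630 and 708 in Nrf1-CKO, with 10.2 ± 0.00807 against 8.07 ± 0.689 CPM. The log2 fold change of -0.34 (SE 0.14, adjusted p = 0.114) was under the fold limit, and *Pgam1* was not called. Its level is uncertain, because 41.5% of the 50-base windows of its longest transcript recur in transcripts of other genes, mainly the copy *Pgam1-ps2*, and a read that maps to several places was not counted. Such windows numbered 203 of 1500 for *Aldoa* and made up 7.51% for *Tpi1*, 2.55% for *Hk1*, where they lie in an overlapping antisense gene, and 0.0543% for *Pfkl*, and there were 0 for the other 5 genes. The *Pgam2* share of 10.4% ± 4.67 in WT and 56.0% ± 18.5 in Nrf1-CKO and the 11.7-fold higher ratio to *Pgam1* (log2 difference 3.54, pooled SD 0.943) rest on that uncertain level. Without the first Nrf1-CKO library the log2 difference in this ratio was 2.76, and without the second it was 4.33. It was 3.02 without the first WT library and 4.07 without the second.

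For each of the 6 ratios between isoforms the libraries of the genotypes did not overlap. An exact two-sided permutation test over 2 against 2 libraries gave p = 0.333 for each ratio, which is the smallest value this design allows, and p = 0.333 after Benjamini-Hochberg adjustment over the 6, so the ratios stand on their values and spread and not on a test.

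Ordered by RPKM in WT, *Aldoa* (193) and *Tpi1* (172) were followed by *Pfkl* (49.1), *Pfkm* (22.6), *Hk2* (12.5), *Hk1* (9.88), *Pgam1* (5.16), *Pfkp* (4.34), *Aldoc* (0.912) and *Pgam2* (0.606). No neighbours in this order overlapped between their libraries, though *Aldoc* and *Pgam2* differed by about the SD of *Pgam2*. The place of *Pgam1* is uncertain whatever this spread, because reads that it shares with *Pgam1-ps2* were not counted. In Nrf1-CKO, *Pgam2* libraries at 8.57 and 3.25 RPKM lay on both sides of *Hk1* (6.99) and *Pgam1* (4.07), and *Pfkp* and *Aldoc*, at 1.45 RPKM each, could not be ordered. The order depended on the exon length used. Per kilobase of the longest transcript, *Hk1* (at least 18.9 RPKM in each library) passed *Hk2* (at most 13.8) and the mean of *Pfkp* (6.69) passed that of *Pgam1* (5.76) in WT, and in Nrf1-CKO *Pfkp* (2.25) lay above *Aldoc* (1.70) and *Hk1* (13.9) above both *Pgam2* libraries.

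Markers of several other tissues were higher in the Nrf1-CKO libraries, where *Pgam2* was higher. All 8 tested muscle markers, of 10 listed, were called higher in Nrf1-CKO (median log2 fold change 2.54), with summed levels of 13.2 and 6.13 CPM in WT and 89.0 and 18.0 CPM in Nrf1-CKO. The first Nrf1-CKO library was highest in *Pgam2*, in the muscle sum and in the lens sum, and the second was next in each. Between the WT libraries, *Pgam2* ran with the lens sum and against the muscle sum. The same order of the Nrf1-CKO libraries held for the periocular mesenchyme sum (256.4 and 182.9 CPM in WT, 401.2 and 342.4 CPM in Nrf1-CKO). Whether RNA of any of these tissues contributed to the *Pgam2* reads was not tested. Markers of macrophages and microglia also rose, 8 of 8, with sums of 71.5 and 65.7 CPM in WT and 219.2 and 269.9 CPM in Nrf1-CKO, as did 6 of 7 tested pigment epithelium markers (213.4 and 151 against 386.5 and 408 CPM). The pigment epithelium gene *Rpe65*, with 0 and 4 reads in WT and 0 in both Nrf1-CKO libraries, was too low to be tested. Of 8 endothelial markers 6 were called higher and 1, *Kdr*, lower, and their sum was 278.2 and 283.6 CPM in WT and 303.8 and 300.9 CPM in Nrf1-CKO. Of the other lists, 5 of 8 mesenchymal and 2 of 4 tested erythroid markers were called higher, and 2 of 6 photoreceptor precursor markers were called lower.

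RGC markers moved with *Pfkp*. The median log2 fold change of the 12 RGC markers was -1.58, and that of the 12 progenitor markers was -0.11. *Pfkp* stood at -1.58, while *Hk1* and *Tpi1* stood at -0.50 and -0.56. The part of the lower RGC markers in the lower *Pfkp* level was not tested.

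**Figure D4:**
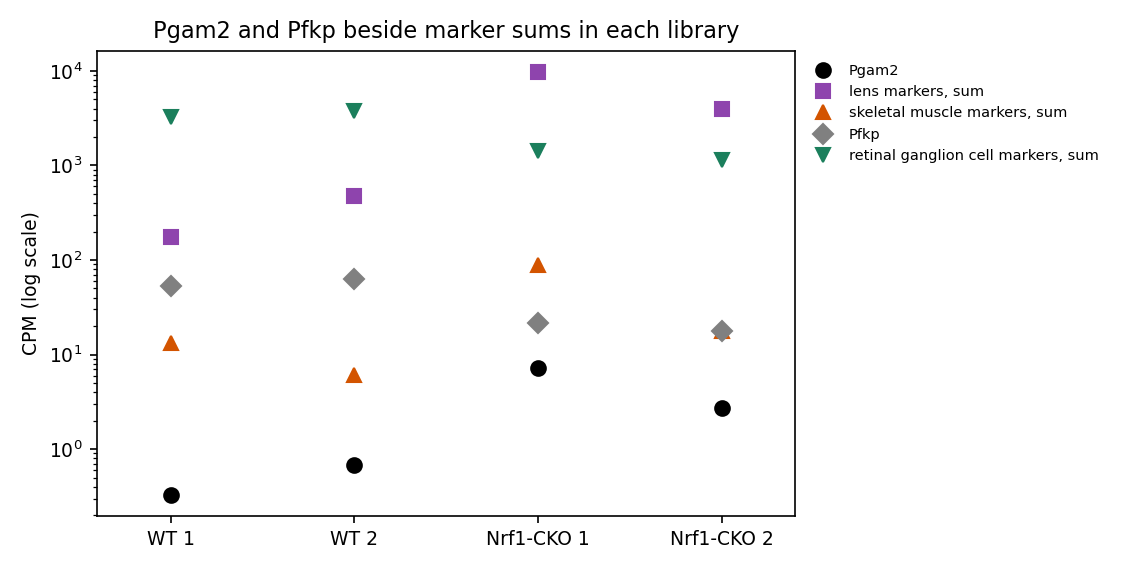
*Pgam2*, *Pfkp* and the summed lens, skeletal muscle and RGC markers in each library, in CPM on a log scale. Lens and muscle sums were highest in the first Nrf1-CKO library, as *Pgam2* was, and the RGC sum was lower in both Nrf1-CKO libraries, as *Pfkp* was.

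The other genes of glycolysis were taken from a fixed list of 17, of which 14 were tested. Of these, 3 were called lower, 2 higher and 9 were not called, beside 8.04% lower and 12.8% higher of all tested genes, so the share called higher was near that background. The median log2 fold change was -0.14. On the deposited normalized values 2 were called lower and 1 higher by limma. Among genes with at least 10 counts in every library, 3 were called lower and 1 higher. The calls also shifted when single libraries were left out. *Ldha*, the lactate dehydrogenase subunit that favours lactate, fell from 46394 and 39249 reads to 27260 and 23710 (log2 fold change -0.78, adjusted p = 0.000439). *Pgk1*, which makes ATP just before phosphoglycerate mutase, fell by 0.55 on the log2 scale (adjusted p = 0.00852). *Hkdc1*, a less studied hexokinase relative, had 478 and 380 reads in WT and 115 and 50 in Nrf1-CKO (log2 fold change -2.41, adjusted p = 0.00168).

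The 2 genes called higher were forms typical of other tissues. In all, 5 of the 14 tested genes had a positive log2 fold change. Those not called were *Hk3* (0.42), *Eno2* (0.28) and *Gapdh* (0.23). *Eno3*, the muscle enolase, had 1535 and 1096 reads in WT and 2356 and 2211 in Nrf1-CKO (log2 fold change 0.77, adjusted p = 0.00174). *Pklr*, the liver and red cell pyruvate kinase, had 1 and 8 reads against 29 and 51 (log2 fold change 3.04, adjusted p = 0.0484), so its fold rests on very few reads.

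The genes *Gpi1*, *Pkm*, *Gapdh* and *Eno1* differed by less than the fold limit. *Gpi1*, which makes the substrate of phosphofructokinase, was at -0.42 (adjusted p = 0.00446) and *Pkm*, the main pyruvate kinase gene, at -0.38 (adjusted p = 0.006), and neither was called. *Gapdh* (0.23, adjusted p = 0.267) and *Eno1* (-0.0024, adjusted p = 0.996) were not called either. Their 729 to 1096 and 212 to 271 reads are few for such abundant enzymes. Both genes, like *Pgk1*, are known for near-identical copies in the genome, so their levels are uncertain. Shared sequence was not measured for these genes, so its part in the low counts was not tested.

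None of the 8 tested genes of a list of 13 for glucose uptake and flux control was called by edgeR or by DESeq2, while 4 had an unadjusted p under 0.05. They ranged from -0.47 for *Pfkfb4* to 0.39 for *Slc2a3*, and their median log2 fold change was -0.08. Single calls appeared under other settings, 1 lower with library-size scaling, 1 higher without the first Nrf1-CKO library and 1 lower without the second. *Slc2a1*, the widely expressed glucose transporter, had 63934 and 55734 reads in WT and 51735 and 54329 in Nrf1-CKO (-0.21, adjusted p = 0.089). Of 13 hypoxia-inducible genes outside glycolysis, 4 were called lower and 1 higher, beside the 8.04% and 12.8% of all tested genes, and on the deposited normalized values 3 were called lower and 0 higher by limma, with an unadjusted p under 0.05 for 8. *Ndufa4l2* (-1.77), *Ankrd37* (-0.94), *Bnip3* (-0.90) and *Pdk1* (-0.63), a kinase that inactivates pyruvate dehydrogenase, were lower. *Egln3*, an oxygen sensor, was higher (0.73), and the median of the list was -0.32.

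**Figure D5:**
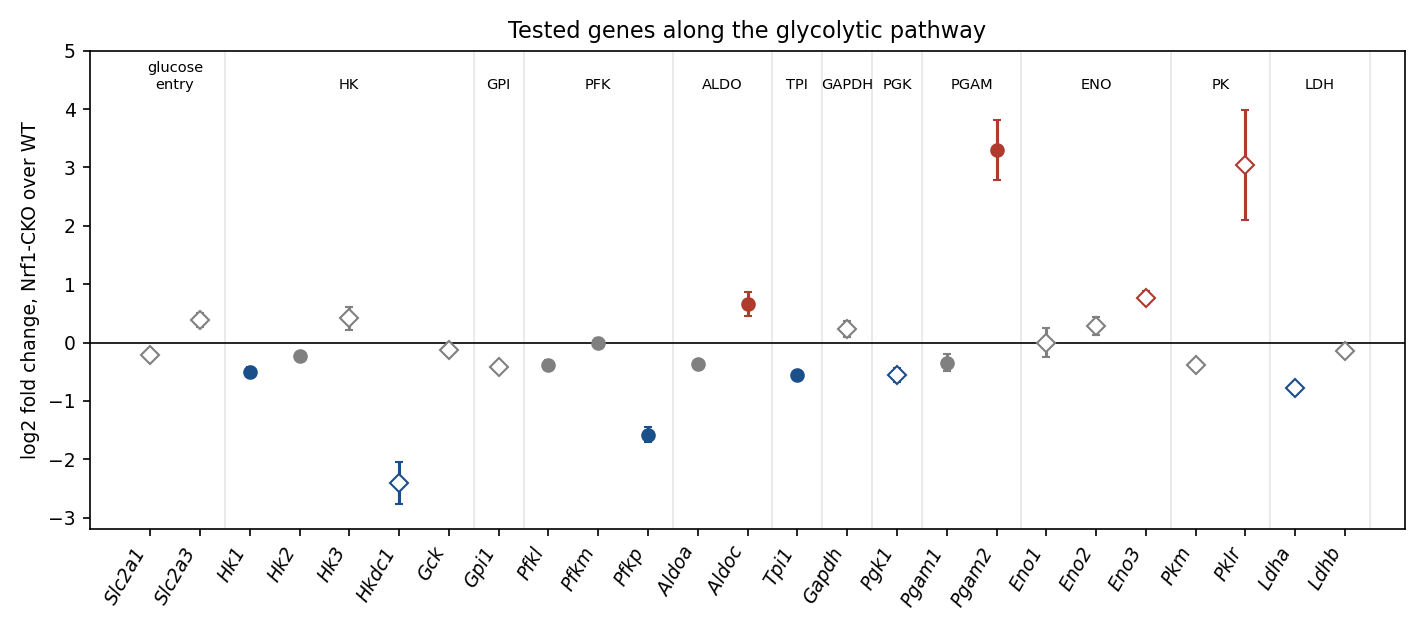
Log2 fold change, Nrf1-CKO over WT, with bars of 1 SE, of tested genes in the order of the pathway from glucose entry to lactate, with filled circles for the 10 isoform genes, open diamonds for other genes, and blue for called lower, red for called higher and grey for not called. Most values lay between -1 and 1, with *Hkdc1* and *Pfkp* under that range and *Pgam2* and *Pklr* above it.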

How the data were processed

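Raw counts per gene were deposited by the authors together with normalized log2 values, whose method is not given in the sources used here. Per the labels, TopHat2 2.7.2 and HTSeq were used with the mm10 build. DESeq and limma are named without a role. Among the deposited counts, 5 summary rows held 74.0% to 75.0% of all entries, with reads that map to several places at 54.6% to 58.0%, and these rows were left out. Whether counting used strand is not given in the sources used here.

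Counts were fitted with edgeR 4.0.16 (R 4.3.3; filterByExpr, TMM, quasi-likelihood test, Benjamini-Hochberg adjustment) on all 4 libraries, grouped by their labels, after a test on simulated data. The common biological coefficient of variation was 12%. Ratios used counts plus 0.5 per kilobase. Exon lengths came from GENCODE M21 (GRCm38, the same assembly as mm10) and promoters from RefSeq. Alternatives were DESeq2 1.42.0, other scalings and filters, a replicate block, a stricter threshold, left-out libraries, other lengths and limma 3.58.1 on the deposited log2 values. The genes named were all 10 isoform genes, the called genes of the pathway lists, and *Gpi1*, *Gapdh*, *Pgk1*, *Eno1*, *Pkm*, *Ldha* and *Slc2a1*. Markers were given as counts and sums and, where named, as the highest or lowest of their list (*Kdr* and *Ccnd1*). *Fgf15*, *Hk3*, *Eno2*, *Rpe65*, *Pfkfb4* and *Slc2a3*, the last 2 as the extremes of their list, were named after their values were seen. The order of levels per longest transcript was added then too. The members and lists were chosen with earlier results of these data known. The authors' thresholds were used, but not their Cuffdiff test, which needs aligned reads.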

Additional observations from a re-analysis of the deposited data

How the results depend on the processing

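The calls of *Pfkp*, *Tpi1* and *Pgam2* held under every alternative in the set described above. *Hk1* stayed lower but missed the fold limit with upper-quartile scaling (-0.46), with the deposited normalized values (-0.45) and without the second WT library (range -0.55 to -0.44 with each library left out). *Aldoc* missed it with the deposited values (0.31). *Pfkm* changed sign around 0 with library-size scaling (-0.020), with no filter on low counts (-0.00049), with the replicate number as a block (-0.00090) and with libraries left out (-0.056 to 0.053), and was never called. On the deposited values, which hold 1 fixed value for every count of 0, 1 isoform gene was called higher, and 723 genes in all were called lower and 945 higher, against 1268 and 2024 from counts. The differences in log2 ratio there were 0.957 for *Pfkl*/*Pfkp*, 1.32 for *Pfkm*/*Pfkp*, 0.672 for *Aldoc*/*Aldoa* and 1.27 for *Pgam2*/*Pgam1*. No alternative moved the median of all genes by more than 0.0403.

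Shares depended on the length used, as each alternative divides by another length. With the longest transcript, the WT and Nrf1-CKO shares were 40.6% and 45.1% for *Hk2*, 72.7% and 70.4% for *Pfkl*, 21.7% and 27.3% for *Pfkm*, and 0.293% and 0.601% for *Aldoc*. As shares of reads they were 46.9% and 51.4% for *Hk2*, 71.0% and 72.6% for *Pfkl*, 16.4% and 21.7% for *Pfkm*, 12.6% and 5.61% for *Pfkp*, 4.72% and 36.4% for *Pgam2*, and 0.526% in WT for *Aldoc*. *Pfkl* had the smaller share in Nrf1-CKO per length and the larger one by reads. The other 5 shares had the same direction in each.

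The counts gave no sign that replicate numbers pair the libraries. The labels do not say whether same-numbered libraries were prepared together. The correlation of deviations between same-numbered libraries was -0.0025, and with the replicate block 3 isoform genes were called lower and 2 higher, and 1256 and 1970 genes in all. Where a library was left out, the lone library of its genotype was assumed to vary like the other pair. *Pgam2*, at 29 and 51 reads in WT, had the largest SE of the log2 fold change of the 10 genes (0.52).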

Other observations

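*Hkdc1* lies 3228 bases from *Hk1* on chromosome 10 in the GENCODE models, and both were called lower in Nrf1-CKO, at -2.41 and -0.50 on the log2 scale. The *Aldoa* retrocopies *Aldoart1* and *Aldoart2* had reads in every library, 1892 and 1528 in WT against 1705 and 1490 in Nrf1-CKO for *Aldoart1*, and 1607 and 1240 against 1198 and 1220 for *Aldoart2*. *Hk1os*, the antisense gene that overlaps *Hk1*, had 45 and 39 reads in WT and 29 and 59 in Nrf1-CKO. These genes were named after their values were seen.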
